A study of Mus musculus with 12 samples.

Results

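The hair shaft and inner root sheath genes were followed in the skin of mice infested with ticks. They are 31 structural genes of the hair follicle, chosen by name: 8 keratins of the inner root sheath, the keratin of the companion layer, 16 keratins of the hair shaft and 6 partner genes. Of these, 30 were among the 25070 genes of the expression table, and Krt85 was not analysed here. RNA sequencing of skin gave 12 libraries. Unbitten skin was labelled naive (n = 2), and bitten skin fell into the groups first exposure (n = 3), ticks 2x (n = 3) and ticks 3x (n = 3), and a single bitten library was labelled saliva immune (n = 1). Bitten skin was sampled 4 days after the bite. A label field gives this time for the unbitten libraries too. It is not stated in the labels whether the sampled infestation counts among the 2 or 3, how saliva immunity was raised, where on the body the skin lay, in which hair cycle stage it was or whether it was shaved. The sources used here give no strain, sex, age or tick species. They also do not state whether each library came from its own animal, so p-values measure only the spread between these libraries.

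A growing hair is built from concentric layers. The cortex and cuticle of the shaft fill with type I and type II hair keratins, which pair to form filaments and are later embedded in keratin-associated proteins. The inner root sheath, with a keratin set of its own, moulds the shaft, and the companion layer separates it from the outer root sheath. In mouse skin follicles pass through growth, regression and rest, and the shaft and inner root sheath genes are made by the differentiating cells of the growing follicle.

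The genes lie in a few dense clusters. In the GENCODE M21 annotation of GRCm38, the 13 type I keratins of the list sit on chromosome 11 between 99315516 and 100105626, a span of 790.1 kb. The 11 type II keratins sit on chromosome 15 between 101431038 and 101802346, a span of 371.3 kb. Tchh, Tchhl1 and S100a3 are on chromosome 3, Padi3 is on chromosome 4 and Gprc5d on chromosome 6. All but Krt74, annotated as a transcribed unitary pseudogene, are protein coding.

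The promoters shown are those of the most variable sheath keratins, of neighbouring shaft keratins, and of the keratins that kept the most reads in the libraries with little hair RNA. Each is the 100 bases before the RefSeq start on GRCm38.p6, read 5′ to 3′ on the minus strand, with every TATAAA in capitals. The first lines are Krt71 (chr15:101743098-101743197) and Krt25 (chr11:99322952-99323051) of the inner root sheath. Krt31 (chr11:100050552-100050651), Krt33b (chr11:100029869-100029968), Krt34 (chr11:100041555-100041654), Krt32 (chr11:100088270-100088369) and Krt36 (chr11:100105627-100105726) belong to the shaft, and Krt75 (chr15:101573905-101574004) to the companion layer.
Krt71: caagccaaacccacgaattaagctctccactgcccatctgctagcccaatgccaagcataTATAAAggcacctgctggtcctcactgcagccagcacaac
Krt25: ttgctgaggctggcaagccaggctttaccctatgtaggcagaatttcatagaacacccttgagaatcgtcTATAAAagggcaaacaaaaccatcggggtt
Krt31: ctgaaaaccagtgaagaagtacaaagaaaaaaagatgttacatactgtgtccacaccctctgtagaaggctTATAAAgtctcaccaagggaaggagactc
Krt33b: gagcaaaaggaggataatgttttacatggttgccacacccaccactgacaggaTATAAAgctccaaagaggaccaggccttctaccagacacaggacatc
Krt34: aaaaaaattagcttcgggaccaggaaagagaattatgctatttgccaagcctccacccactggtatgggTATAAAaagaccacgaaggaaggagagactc
Krt32: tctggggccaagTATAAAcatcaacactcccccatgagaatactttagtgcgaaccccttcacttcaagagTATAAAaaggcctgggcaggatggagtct
Krt36: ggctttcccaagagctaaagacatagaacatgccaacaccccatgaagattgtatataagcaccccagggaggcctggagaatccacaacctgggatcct
Krt75: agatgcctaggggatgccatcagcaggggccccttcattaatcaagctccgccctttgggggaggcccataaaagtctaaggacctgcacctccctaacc

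In the printed stretches TATAAA began 40 bases before the start in Krt71, 30 in Krt25, 29 in Krt31, 47 in Krt33b and 31 in Krt34. Krt32 held it at 88 and at 29 bases before the start, and Krt36 and Krt75 did not hold these letters in the stretch shown. RefSeq windows of 250 bases before to 50 after the start were found for 22 of the 30 genes (25 windows). Searched on both strands, TATAAA was in the windows of 15 genes, or 60% of their windows, against 13.6% of the 32851 windows of all genes. TTTATNG, a homeobox-type motif, was in the windows of 13 genes (52% of windows, against 10.9% of all). Its letters overlap the reverse complement of TATAAA, and 6 of its 14 matches overlapped such a match. CTTTGA, the LEF/TCF-type motif, was in 8 (32%, against 16% of all), TGANTCA in 1 (all windows, 7.81%) and ACGCGT in none (all windows, 1.86%). These are counts of letters in genes that arose by duplication, so the windows are not independent.

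The hair genes differed far more between libraries of one group than between groups. Their summed level was 10550 and 61.4 CPM (counts per M, or mega, reads) in the naive libraries. It was 34487, 40231 and 79.5 CPM at first exposure, 31516, 220 and 36.4 CPM in ticks 2x, 1681, 6386 and 34.0 CPM in ticks 3x, and 21.1 CPM in the saliva immune library. Every group of 2 or 3 libraries thus held both a library with 6386 CPM or more and one under 100 CPM, and the ranges of these 4 groups overlapped. The 30 genes took 4.02% of all reads in the second first-exposure library and 0.00211% in the saliva immune one. In bulk skin, fewer hair-forming cells and less RNA per cell cannot be told apart.

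**Figure D1:**
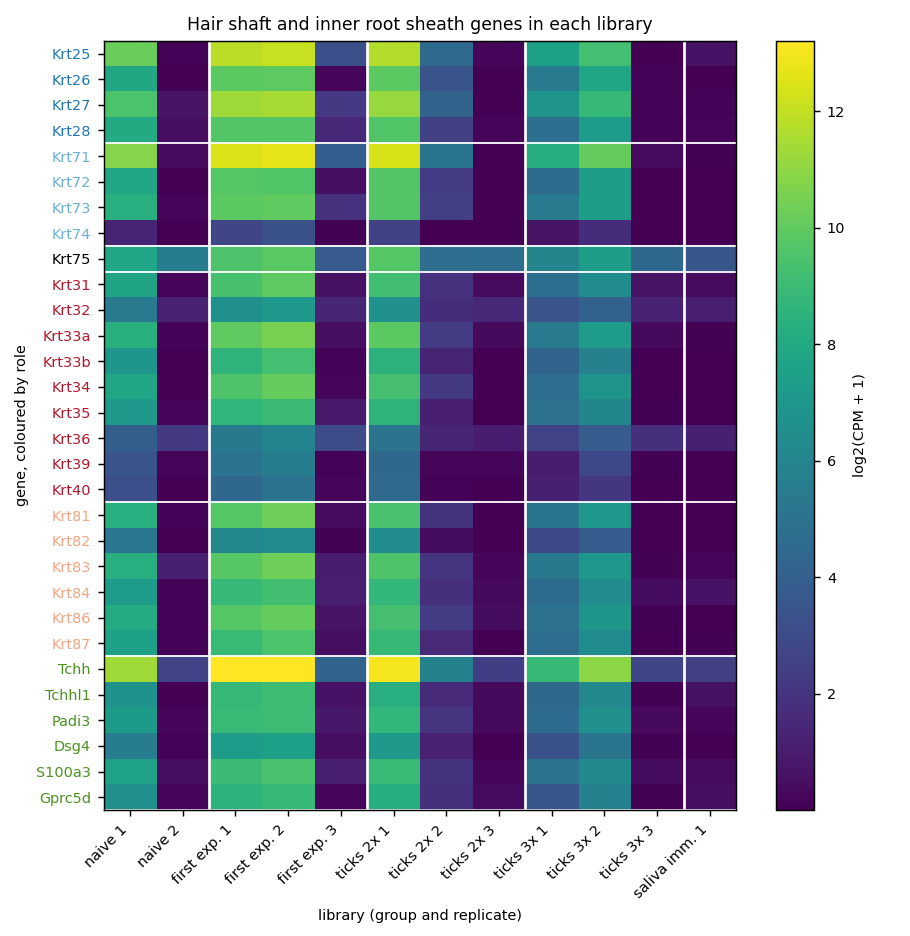
Level of each of the 30 genes (rows, coloured and ordered by role) in each of the 12 libraries (columns), as log2(CPM + 1), with white lines between roles and groups. The 6 bright columns (naive 1, first exposure 1 and 2, ticks 2x 1, ticks 3x 1 and 2) come from 4 groups, and the other columns are dark in most rows.

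The type I keratins of the inner root sheath, Krt25 to Krt28, form its filaments together with type II partners. Krt25 had 1183 and 0.08 CPM in naive skin, 3618, 4379 and 8.24 CPM at first exposure, 3293, 21.9 and 0.186 CPM in ticks 2x and 188 and 624 CPM in the first ticks 3x libraries. It was listed at 0 in the third ticks 3x library and had 0.546 CPM in the saliva immune one. Krt27 ran alongside, with 709 and 0.639 CPM in naive skin, 2586, 2844 and 3.53 CPM at first exposure, 2347 and 17.2 CPM in the first ticks 2x libraries and 112, 467 and 0.0997 CPM in ticks 3x. The third ticks 2x library listed Krt27 at 0, and the saliva immune one had 0.0781 CPM. In both genes the same 6 libraries were high, and each group overlapped the others. Krt26 and Krt28 peaked lower, at 962 and 828 CPM in the second first-exposure library.

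Among the type II keratins of the inner root sheath, Krt71 carried most of the RNA. Mutations of Krt71 give mice wavy or curly coats. Its level was 1815 and 0.32 CPM in naive skin, 5848, 6698 and 14.5 CPM at first exposure, 5372 and 33.8 CPM in the first ticks 2x libraries, and 299, 1076 and 0.299 CPM in ticks 3x. The third ticks 2x library listed it at 0, and the saliva immune library had 0.0391 CPM, which is under the level of 3 reads. Group means (SD) were 908 ± 1283 CPM in naive skin (n = 2), 4187 ± 3638 CPM at first exposure (n = 3), 1802 ± 3092 CPM in ticks 2x (n = 3) and 458 ± 555 CPM in ticks 3x (n = 3). In 3 of these 4 groups the SD was thus larger than the mean. Krt72, a keratin of the sheath cuticle, was the one gene whose highest library was the first of first exposure, with 849 CPM there and 782 CPM in the second. Krt73 reached 1019 CPM. The pseudogene Krt74 never exceeded 8.86 CPM and was listed at 0 in 5 libraries.

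Per kb of transcript, the scale on which genes can be compared, the second first-exposure library held 3064 CPM per kb of Krt71, 2202 of Krt25, 1835 of Krt27 and 1629 of Tchh. The highest gene outside the inner root sheath set and Tchh was S100a3 at 963 CPM per kb, followed by Krt33a at 871 and Krt83 at 720. The lowest were Krt40 at 23.6 and Krt74 at 5.58 CPM per kb.

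The shaft keratins followed the sheath keratins. In human follicles the products of KRT31, KRT33A, KRT33B, KRT34, KRT81, KRT83 and KRT86 are found in the cortex, and those of KRT32, KRT39, KRT40 and KRT82 in the cuticle. Krt33a had 337 and 0.08 CPM in naive skin, 1024, 1465 and 0.448 CPM at first exposure, 950, 4.12 and 0.248 CPM in ticks 2x, 44.1, 157 and 0.249 CPM in ticks 3x and 0.0391 CPM in the saliva immune library. Krt81 had 315 and 0.08 CPM in naive skin, 834, 1262 and 0.3 CPM at first exposure, 685 and 2.77 CPM in the first ticks 2x libraries and 34.7 and 132 CPM in the first ticks 3x libraries. Krt81 was listed at 0 in the third ticks 2x, the third ticks 3x and the saliva immune library. For both genes the 6 highest libraries were those of the sheath keratins. The other shaft keratins peaked in the second first-exposure library as well, Krt31 at 964 CPM, Krt33b at 617, Krt34 at 1096, Krt35 at 509, Krt83 at 1265, Krt84 at 589, Krt86 at 1101 and Krt87 at 706 CPM. In the saliva immune library the same 8 genes held at most 0.585 CPM each.

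Several of these paralogs share sequence, so their separate levels are uncertain. Over windows of 50 bases of the longest transcript, Krt81 shared 43.5% with other genes, Krt86 43.3%, Krt87 36.9%, Krt34 33.1%, Krt31 28.1%, Krt33b 24.2%, Krt83 23.2% and Krt33a 21.9%. How the authors counted reads with more than 1 match is not stated. For 11 genes, among them Krt75, Krt32, Krt82 and Tchh, no window was shared.

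The cuticle keratins were lower. Krt82 had 35.6 CPM in the first naive library, 67.2 and 85.9 CPM in the first libraries of first exposure, 83.7 CPM in the first ticks 2x library and 6.33 and 13.3 CPM in the first ticks 3x libraries. The other libraries held at most 0.37 CPM of it. Krt39 and Krt40 peaked at 46.5 and 31.2 CPM, both in the second first-exposure library.

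Among the partner genes, Tchh encodes trichohyalin, which binds the keratin filaments of the inner root sheath and medulla once it is deiminated and crosslinked. It had 2613 and 5.35 CPM in naive skin, 9175, 9484 and 17.7 CPM at first exposure, 8505, 54.3 and 4.41 CPM in ticks 2x, 458, 1908 and 5.83 CPM in ticks 3x and 4.6 CPM in the saliva immune library. It stayed above the level of 3 reads throughout, and its groups overlapped. Padi3, the deiminase that acts on trichohyalin, had 144 and 0.16 CPM in naive skin, 475, 533 and 0.82 CPM at first exposure, 427, 2.91 and 0.248 CPM in ticks 2x and 23.2, 103 and 0.249 CPM in ticks 3x. S100a3, a calcium-binding protein of the hair cuticle, peaked at 686 CPM, Tchhl1, a relative of trichohyalin, at 546 CPM, and Gprc5d, an orphan receptor, at 457 CPM. Dsg4, the desmosomal cadherin whose loss gives lanceolate hair in mice and whose gene is on chromosome 18, peaked at 176 CPM. For all 4 genes the peak was the second first-exposure library.

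The genes that stayed measurable in every library were Krt75, Krt32, Krt36 and Tchh (4 of 30). Krt75, the companion layer keratin, had 219 and 46.4 CPM in naive skin, 734, 900 and 12.7 CPM at first exposure, 850, 25.1 and 26.3 CPM in ticks 2x, 63.9, 171 and 21.4 CPM in ticks 3x and 10.7 CPM in the saliva immune library. Krt36 had 15 and 3.75 CPM in naive skin, 40, 60.3 and 7.12 CPM at first exposure, 32.6, 1.69 and 1.12 CPM in ticks 2x, 5.65, 13.4 and 2.59 CPM in ticks 3x and 1.25 CPM in the saliva immune library. Krt32 had 42.5 and 1.36 CPM in naive skin, 97.6, 130 and 1.64 CPM at first exposure, 103, 2.32 and 1.92 CPM in ticks 2x, 10, 16.2 and 1.49 CPM in ticks 3x and 1.13 CPM in the saliva immune library. In the second naive, the third ticks 2x, the third ticks 3x and saliva immune libraries, Krt75 alone made up between 50.8% and 75.6% of the summed level. With Tchh, Krt32 and Krt36 it made up between 83.9% and 92.7% there. In the 6 libraries with the highest sums Krt75 made up between 2.08% and 3.80%.

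**Figure D2:**
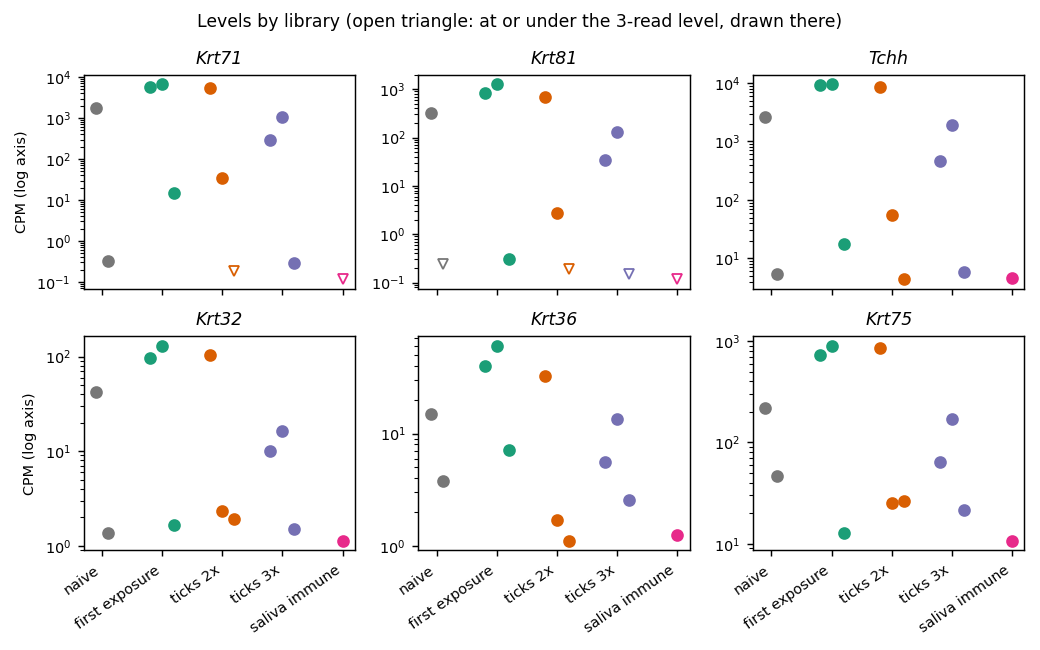
Levels of 6 genes in every library (CPM, log axis), by group, with 1 point per library and open triangles at the level of 3 reads for values at or under it. Krt71 and Krt81 drop to that level in some libraries, while Krt32, Krt36, Krt75 and Tchh stay above it in all 12.

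The count of measurable genes told the libraries apart in the same way. A level of 3 reads, between 0.101 and 0.24 CPM at the estimated depths of 12.5 M to 29.8 M reads, was exceeded by 30 and 9 of the 30 genes in naive skin. It was exceeded by 30, 30 and 25 genes at first exposure, by 30, 27 and 11 in ticks 2x, by 30, 30 and 10 in ticks 3x and by 12 in the saliva immune library. All 30 genes passed the filter for testing, set at 1 CPM or more in 2 or more of the 11 libraries of the 4 larger groups, and they passed it through the libraries in which they were high.

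The spread across the 12 libraries was among the widest in the table. Values under the level of 3 reads were raised to it for these folds, here and for the gene lists, so that a fold with such a value is smaller than the ratio of the listed values. Between the highest and lowest library, 27 of the 30 genes differed by over 100-fold, as did 244 of the 17064 genes tested (1.43%). The median was 4450-fold for the 30 genes and 2.44-fold for all genes tested. Krt71 had the widest range, 57238-fold. The narrowest were 54.0-fold for Krt36, 75.7-fold for Krt74, 83.9-fold for Krt75 and 115-fold for Krt32. Of the 71 genes past 1000-fold, 23 were hair shaft and inner root sheath genes and 28 were keratin-associated proteins.

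Within groups the range was narrower than over all 12 libraries, but still wide. In the naive pair, 24 of the 30 genes differed by over 100-fold, against 0.398% of all genes tested. From lowest to highest library, it was 26 genes at first exposure (0.92% of all genes), 26 in ticks 2x (0.82%) and 23 in ticks 3x (0.44%). The median within-group fold of the 30 genes was 587 in naive skin, 609 at first exposure, 1922 in ticks 2x and 423 in ticks 3x. All genes tested had medians of 1.23 in naive skin, 1.49 at first exposure, 1.57 in ticks 2x and 1.43 in ticks 3x. The within-group SD on the log2(CPM + 1) scale had a median of 4.47 for the 30 genes and 0.29 for all genes. Krt71's SD of 5.79 was the highest of any gene tested. The groups accounted for a median of 10.3% of the variance of the 30 genes, between 6.63% for Krt26 and 33.4% for Krt36, and for 40.4% of that of all genes tested.

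No hair shaft or inner root sheath gene passed the test between any 2 groups. The question of the series is how repeated infestation changes the skin, and limma was fitted to log2(CPM + 1) over the 11 libraries of the 4 groups, with p-values adjusted over all 17064 genes. At first exposure relative to naive skin, 0 of 30 genes were called, with 2 of all genes called (0.0117%). For ticks 2x relative to naive skin it was 0 of 30, with 6 of all genes (0.0352%), and for ticks 3x relative to naive skin 0 of 30, with 1 of all genes (0.00586%). For ticks 2x and ticks 3x relative to first exposure and for ticks 3x relative to ticks 2x it was 0 of 30, with 0% of all genes. Even at an unadjusted p under 0.05, none of the 30 genes passed in any of the 6 comparisons, where between 878 and 3035 of all genes did. The count of all genes called was low throughout, so the 0 of 30 stands near the background.

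The fitted differences were large, with errors larger than the estimate for most genes. At first exposure relative to naive skin all 30 estimates were positive, with a median log2 difference of 2.58 against 0.08 for all genes, and SEs between 1.08 and 4.59. Krt71 stood highest, at a log2 difference of 4.11 ± 4.59 (SE, limma adjusted p = 0.669). Krt36 had the lowest adjusted p of the 30, at a log2 difference of 1.65 ± 1.28 (SE, limma adjusted p = 0.536). For ticks 2x relative to first exposure all 30 estimates were negative, with a median of -2.77 against -0.08 for all genes, and again Krt36 had the lowest adjusted p (log2 difference -2.25 ± 1.14 SE, limma adjusted p = 0.368). For ticks 3x relative to first exposure all 30 were negative with a median of -2.61, against -0.04 for all genes. These comparisons share the first-exposure libraries. They also split by title series: first exposure and saliva immune carry one series in their titles and all other libraries another, so exposure and title series cannot be told apart.

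The comparisons within one title series gave medians near 0. For ticks 2x relative to naive skin the median log2 difference of the 30 genes was -0.06, with 9 positive. For ticks 3x relative to naive skin it was -0.02, with 15 positive, and for ticks 3x relative to ticks 2x 0.14, with 21 positive. Their SEs reached 4.59, so a median near 0 does not show that the groups were alike. Leaving out single libraries moved these medians widely. Without the second naive library the first-exposure median turned to -1.06, and those of ticks 2x and ticks 3x over naive skin moved to -3.82 and -3.66. Without the first naive library the same medians were 6.19, 3.43 and 3.62. Removal of the third first-exposure library took the median over naive skin to 5.38, and that of ticks 2x and ticks 3x over first exposure to -5.60 and -5.50, with 0 of 30 genes called. In these fits 3.55%, 0.809% and 8.33% of all genes tested were called, far above the shares with all libraries. At an unadjusted limma p under 0.05, 1, 3 and 5 of the 30 genes passed. The share of all genes at that unadjusted p was not taken in these fits. With all libraries it was 16.4%, 15.9% and 17.8% for the same comparisons.

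**Figure D3:**
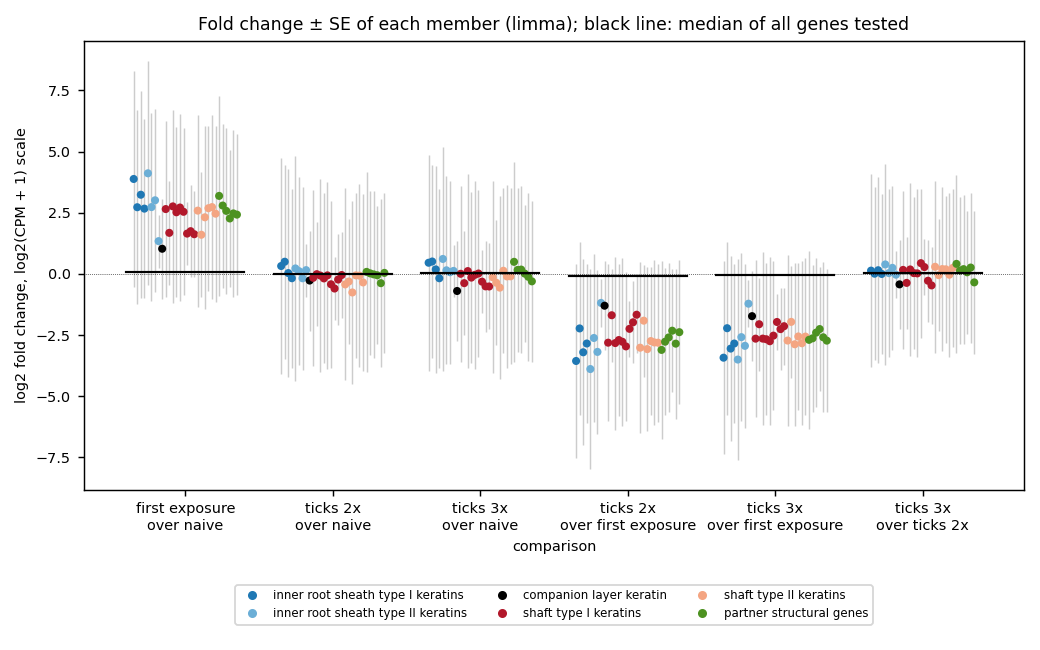
Log2 difference of each of the 30 genes in each comparison (limma, log2(CPM + 1) scale), with grey bars of 1 SE, points coloured by role and a black line at the median of all genes tested. All 30 points are above 0 for first exposure over naive and below 0 for ticks 2x and ticks 3x over first exposure, and the bars of most genes cross 0.

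The genes kept nearly the same order of libraries. For 29 of the 30 the 6 highest libraries were those with the highest sums, which in falling order were first exposure 2, first exposure 1, ticks 2x 1, naive 1, ticks 3x 2 and ticks 3x 1. For 23 genes the order of those 6 was exactly that of the sums. Krt36 was the exception, with 7.12 CPM in the third first-exposure library, above its 5.65 CPM in the first ticks 3x library. Ticks 2x 2 came seventh for 25 genes, and first exposure 3 eighth for 21. Genes of one tissue share each library, so this order is a description without a test.

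Between libraries with much hair RNA most genes changed roughly in proportion, with single genes apart. Relative to the first library of first exposure, the second held a median of 127% of each gene's level, between 92.1% for Krt72 and 162% for Krt33b. Ticks 2x 1 held 91.4%, between 63.7% for Krt39 and 125% for Krt82. Naive 1 held 32.4%, between 24.4% for Tchhl1 and 53.0% for Krt82. Ticks 3x 2 held 17.6%, between 13.2% for Krt31 and 41.3% for Krt74, and ticks 3x 1 held 4.85%, between 2.88% for Gprc5d and 14.1% for Krt36. Ticks 2x 2, with far less hair RNA, held 0.528%, with Krt74 listed at 0 and Krt36 highest at 4.23%. Which gene stood highest differed by library: Krt82 in naive 1 and ticks 2x 1, Krt33b in first exposure 2, Krt74 in ticks 3x 2, and Krt36 in ticks 3x 1 and ticks 2x 2.

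**Figure D4:**
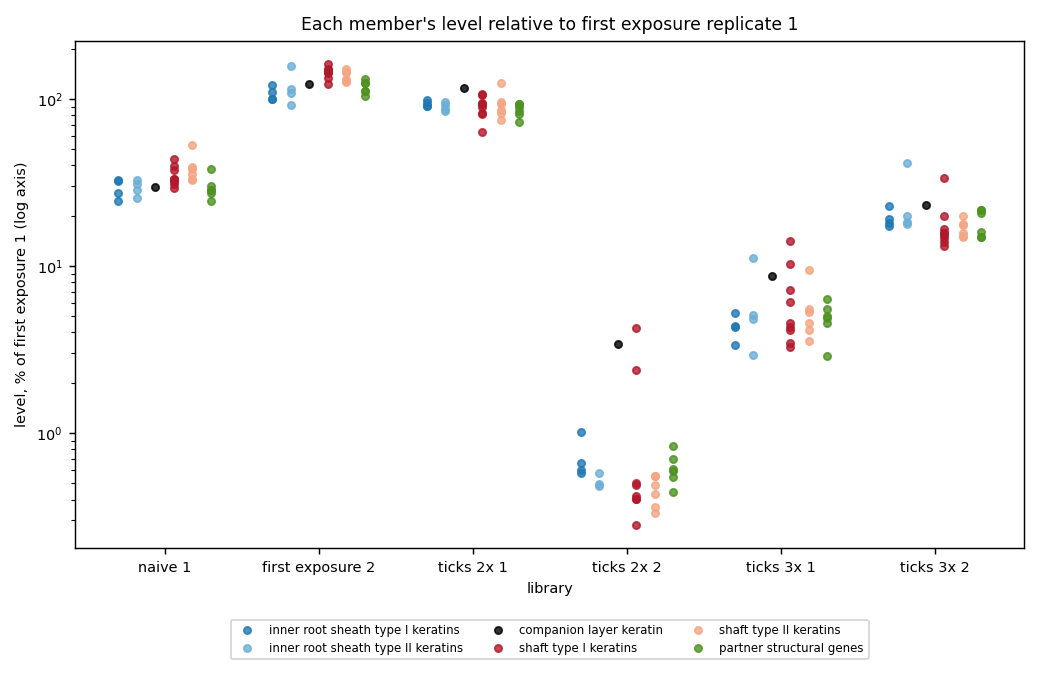
Level of each of the 30 genes relative to its level in the first library of first exposure (percent, log axis) in 6 other libraries, coloured by role; genes listed at 0 are not drawn. Medians run between 127% in first exposure 2 and 0.528% in ticks 2x 2, where Krt36, Krt75 and Krt32 stand above the rest.

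The balance between layers differed by library. In the second first-exposure library, the shaft keratins stood higher relative to the first one (type I median 147%, type II 137%) than the sheath keratins did (type I 105%, type II 112%). In naive 1 the shaft keratins stood at 33.0% and 36.7%, and the sheath keratins at 29.9% and 29.8%. The ratio of summed CPM, sheath over shaft keratins, was 1.98 in naive 1, 2.23 and 1.76 in first exposure 1 and 2, 2.34 in ticks 2x 1, and 2.27 and 2.67 in ticks 3x 1 and 2. First exposure 3 and ticks 2x 2, with far less hair RNA, had 2.14 and 2.94. In the 4 libraries with the lowest sums the ratio was 0.222 in naive 2, 0.0686 in ticks 2x 3, 0.109 in ticks 3x 3 and 0.245 in saliva immune. These last ratios rest on an estimated 5 to 22 reads of sheath keratins and 73 to 110 reads of shaft keratins, most of which were Krt32 and Krt36.

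Type I and type II keratins pair as heterodimers in filaments, and in the 6 libraries with the highest sums their RNA was close to balanced. Per kb of transcript, sheath type I over type II was 1.21 in naive 1, 1.24 and 1.25 in first exposure 1 and 2, 1.24 in ticks 2x 1, and 1.18 and 1.22 in ticks 3x 1 and 2. Across those 6 libraries the sheath sum itself ran between 739 and 17521 CPM. For the shaft, without Krt85, the ratio ran between 1.04 and 1.23 in the same libraries. In the other libraries, with less hair RNA, most ratios left these ranges, while the sheath ratio in ticks 3x 3 was 1.21, on an estimated 12 sheath reads. Ticks 2x 2 had 1.47 for the sheath and 1.43 for the shaft, and first exposure 3 had 0.927 for the sheath and 3.93 for the shaft, where an estimated 340 shaft reads were found. The shaft ratio was 4.09 in naive 2 and 16 in ticks 3x 3, and the sheath ratio was 3.17 in naive 2 and 24.7 in saliva immune. In first exposure 3, naive 2 and ticks 3x 3, Krt36 and Krt32 held most of the shaft type I level. Krt36 alone had 7.12 of 11.1 CPM in first exposure 3, 3.75 of 5.67 CPM in naive 2 and 2.59 of 5.03 CPM in ticks 3x 3. In the 6 libraries with the highest sums trichohyalin made up between 23.6% and 29.9% of the summed CPM.

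The keratin-associated proteins, the matrix of the shaft, moved with its keratins. The summed CPM of 53 such genes was 3108 and 11.1 in naive skin, 9434, 13775 and 17.4 at first exposure, 6997, 51.1 and 13.9 in ticks 2x, 380, 1385 and 20.2 in ticks 3x and 11.6 in the saliva immune library. In the 6 libraries with the highest sums it was 1.14 to 1.39 times the sum of the shaft keratins. The highest were Krtap7-1, Krtap8-1 and Krtap15, at 1760, 1586 and 1194 CPM in the second first-exposure library. Krtap3-2 differed from them, with 10.8 CPM still in the saliva immune library and 13.8 CPM in first exposure 3. It was singled out after its values were seen. Of the 53 genes, 47 differed by over 100-fold across libraries, and 0 were called in any comparison.

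The profile of the 30 genes was also matched to all 11910 ranked genes outside the list, as the mean absolute difference of standardised log2(CPM + 1) over the 12 libraries. The median gene lay at 1.07. The 10 nearest were Fam26d (0.0278), Krtap8-1 (0.0299), Krtap7-1 (0.0343), Crnn (0.0428), Krtap1-5, Krtap11-1, Krtap4-1, Krtap3-1, Krtap6-1 and Krtap4-2 (0.0766), and 32 of the nearest 50 were keratin-associated proteins. Fam26d reached 428 CPM and Crnn 453 CPM in the second first-exposure library, and both were under 1 CPM in first exposure 3. Of the 30 genes themselves, which define the profile, Padi3 lay nearest at 0.0241 and Krt36 farthest at 0.298.

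Regulators of the hair matrix moved in part. Of 20 listed, 0 were called in any comparison. At an unadjusted limma p under 0.05, 2 passed for ticks 2x over first exposure, with 15.9% of all genes. For ticks 3x over first exposure 2 passed as well, with 17.8% of all genes. In the other comparisons at most 1 did. Of the 3 with the highest mean levels, Gata3, a regulator of inner root sheath fate, differed by 1.82-fold across libraries and Hr, the hairless gene, by 2.10-fold, both less than the 2.44-fold median of all genes tested. Cux1 differed by 5.25-fold, with 147 and 80.2 CPM in naive skin, 388, 375 and 90.8 CPM at first exposure, 294, 114 and 101 CPM in ticks 2x, 102, 147 and 74.0 CPM in ticks 3x and 93.9 CPM in the saliva immune library. The widest, picked after their values were seen, were Fgf5, which ends hair growth in mice, with 321-fold, Shh, the matrix morphogen, with 138-fold, Foxe1, a forkhead factor, with 125-fold, and Lef1, a mediator of Wnt signals, with 124-fold. Hoxc13, which activates hair keratin genes, had 53.3 and 7.03 CPM in naive skin, 178, 193 and 2.76 CPM at first exposure, 186, 5.12 and 5.21 CPM in ticks 2x, 18.0, 38.5 and 6.23 CPM in ticks 3x and 2.57 CPM in the saliva immune library. Its high libraries were those of the keratins. In all, 4 of the 20 differed by over 100-fold and 9 by over 10-fold.

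Of 6 crosslinking and deiminating enzymes besides Padi3, 0 were called. Padi1 differed by 2243-fold, Padi4 by 60.9-fold and Tgm3, a transglutaminase of the sheath and shaft, by 24.1-fold, while Tgm1, the epidermal transglutaminase, differed by 2.28-fold. Padi4 was picked after its values were seen. Padi2 and Tgm5 did not follow the hair genes. Padi2 was highest in ticks 2x 3 (40.2 CPM) and lowest in ticks 2x 1 (4.53 CPM), and Tgm5 was lowest in first exposure 2 (13.4 CPM). Of 11 outer root sheath and bulge genes 0 were called. The 3 highest, Krt5, Krt14 and Krt15, differed by 2.92-fold, 3.93-fold and 3.15-fold. Other genes of that list differed more, Lgr5, a stem cell receptor, by 20.2-fold, Sox9 by 11.6-fold, Lhx2 by 10.2-fold and Krt17 by 5.33-fold, and were picked after their values were seen. Lgr5 had 18.0 and 15.3 CPM in naive skin, 48.9, 45.7 and 3.54 CPM at first exposure, 43.1, 4.65 and 6.53 CPM in ticks 2x, 10.6, 20.1 and 4.33 CPM in ticks 3x and 2.42 CPM in the saliva immune library. Of 7 dermal papilla genes tested 0 were called, with Fgf7 and Fgf10 at 2.40-fold and 5.03-fold and Wif1 at 21.5-fold.

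Markers of other cell types moved with the hair genes in some cases. The summed CPM of 9 melanocyte markers was 197 and 34.7 in naive skin, 1297, 2282 and 20.1 at first exposure, 750, 10.8 and 18.6 in ticks 2x, 75.9, 128 and 21.8 in ticks 3x and 16.3 in the saliva immune library. Of the 9, 7 differed by over 100-fold, and Oca2 was listed at 0 in 5 libraries with low hair RNA. Interfollicular epidermis ran the other way in several libraries. Its 7 markers summed to 6585 and 12051 CPM in naive skin, 4770, 2881 and 17583 CPM at first exposure, 5345, 17458 and 7290 CPM in ticks 2x, 16748, 10278 and 11278 CPM in ticks 3x and 14001 CPM in the saliva immune library. Krt10, Krt77 and Krt1 had the highest mean levels, and not every marker went their way. Ivl had 157 and 171 CPM in first exposure 1 and 2, against 117 CPM in first exposure 3. Krt2 was highest in first exposure 1, at 13.5 CPM. Markers of dividing cells differed by 4.57-fold at most in their sum. It was highest in the libraries with the most hair RNA, at 676 CPM in first exposure 2, 662 CPM in first exposure 1 and 495 CPM in ticks 2x 1. Below these the order differed from that of the hair genes. Ticks 2x 2 had 385 CPM, above naive 1 at 369 CPM. Ticks 3x 1 had 230 CPM, below the saliva immune library at 336 CPM. All 9 of these markers had an unadjusted limma p under 0.05 for ticks 3x over first exposure, as did 3035 of all genes (17.8%), and 0 were called. The part of these cell types in the hair gene levels was not tested.

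**Figure D5:**
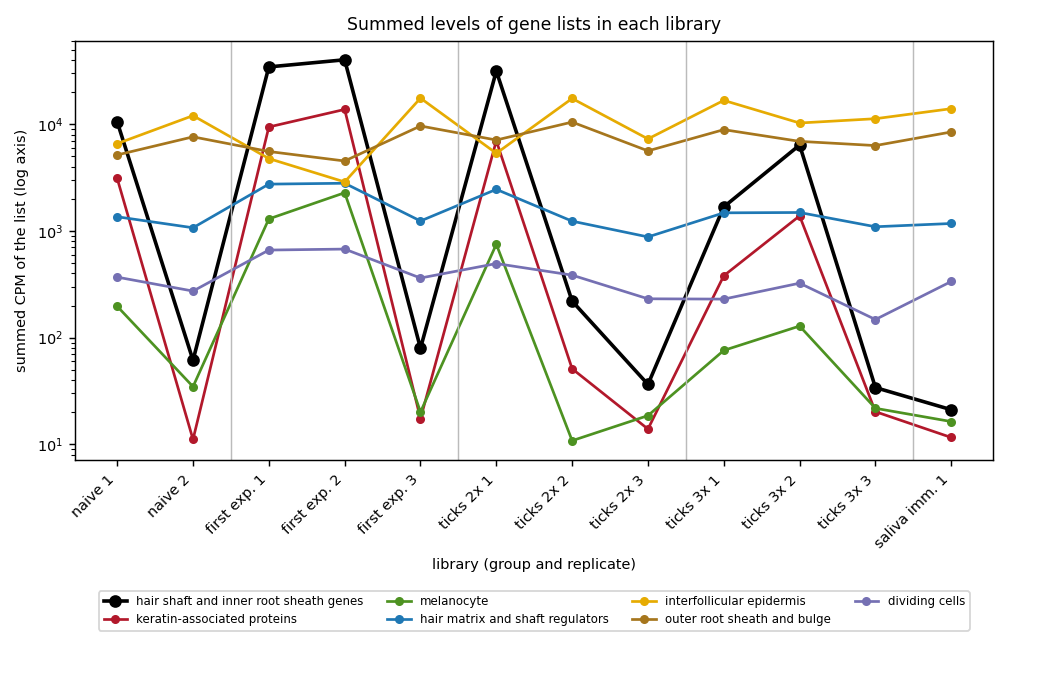
Summed CPM (log axis) of the 30 hair genes and of 6 other gene lists in each library, where lines only join the points of one list. Between libraries with much and little hair RNA, the keratin-associated protein and melanocyte sums move with the hair genes, by 211-fold or more. Among libraries with little hair RNA the melanocyte order differs, with 10.8 CPM in ticks 2x 2 and 34.7 CPM in naive 2. The sum of the outer root sheath and bulge list, in which Krt5 and Krt14 are highest, differs by 2.32-fold. That of dividing-cell genes differs by 4.57-fold. Single genes of a list can differ more.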

How the data were processed

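RNA from skin was isolated with a Qiagen kit and sequenced as Illumina libraries, per the labels' protocols. STAR, Partek 8.0.19 and GRCm38.p6 are named in the submitters' processing notes, and neither the counting program nor strandedness or annotation is given in the sources used here. The authors deposited CPM for 25070 genes in 12 libraries, with 0.0001 added to each value. The most frequent low value of a library, or a whole fraction of it, set the CPM step taken as 1 read. Depth was estimated from this step. Between 73.7% and 79.4% of low values in a library were whole multiples of it within 0.02 reads, too few to recover counts, and 3 reads served as detection level, which covers counting error only.

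Groups came from the labels. limma 3.58.1 (R 4.3.3) was fitted with a variance trend to log2(CPM + 1) for the 17064 genes that reached 1 CPM in 2 or more of 11 libraries, in 1 fit of 4 groups with 7 residual degrees of freedom. Such fold changes understate those of low genes. Calls needed p below 0.05 after Benjamini-Hochberg adjustment over all genes. The saliva immune library (n = 1) was described only. Alternatives were other pseudocounts, filters and scaling, fits of 2 groups, array weights and leaving out each library. All 31 genes were to be named, with the 10 most alike genes, and of each pathway list the called members or the 3 highest. Members and lists were chosen with earlier results of these data known. The fit was tested on simulated data. Promoters are from RefSeq. Tables and figures used Python 3.11.15, pandas 2.3.3 and matplotlib 3.10.9.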

Additional observations from a re-analysis of the deposited data

How the results depend on the processing

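The count of hair shaft and inner root sheath genes called was 0 in all 6 comparisons, also in 46 of 48 fits with another setting and in 66 of 66 fits with a library left out. The exceptions came from array weights by the gene-by-gene algorithm, added after seeing the data because the default algorithm stopped before it converged. They called 1 gene, Krt36, for ticks 2x over first exposure (limma adjusted p = 0.0392) and 6 for ticks 3x over first exposure (Krt74, Krt75, Krt32, Krt36, Krt39 and Krt40). The same fits called 3189 and 8205 of all 17064 genes tested, larger shares than among the 30 genes. The algorithms gave the first library of first exposure weights of 0.212 (default) and 5.71 (gene by gene). The genes' median log2 difference moved most with array weights (default and gene by gene): to 4.27 and 4.95 for first exposure over naive, -0.59 and -0.39 for ticks 2x over naive, 1.05 and 1.16 for ticks 3x over naive, -5.00 and -5.54 for ticks 2x over first exposure, -3.19 and -3.82 for ticks 3x over first exposure, and 1.67 and 1.61 for ticks 3x over ticks 2x. These shifts are below the within-group SD of the genes' mean log2 level, 4.10. That SD is the spread of single libraries, not the error of a group difference. It is larger than every median with equal weights and no library left out. With single libraries left out, the genes' median log2 difference ran between -1.06 and 6.19 for first exposure over naive. For ticks 2x over naive it ran between -3.82 and 3.43, and for ticks 3x over naive between -3.66 and 3.62. The range was -5.60 to -0.94 for ticks 2x over first exposure and -5.50 to -0.84 for ticks 3x over first exposure. For ticks 3x over ticks 2x it was -1.57 to 2.75. The count of all genes called depended on the setting. For first exposure over naive it was 9 with a pseudocount of 0.5, with 0.1 and with no filter, 8 with a filter at 5 CPM, 1753 with array weights and 4375 with gene-by-gene weights, against 2. For ticks 2x over naive it was 11 with no filter, 3 at 5 CPM, 0 with only these groups and 34 with array weights, against 6. For ticks 3x over naive it was 5 with no filter, 0 with only these groups, 276 with array weights and 14 with gene-by-gene weights, against 1. For ticks 2x over first exposure the weights gave 583 and 3189, and for ticks 3x over first exposure 5078 and 8205, against 0. With single libraries left out these counts ran between 0 and 605, 0 and 5, 0 and 1, 0 and 138, 0 and 1421, and for ticks 3x over ticks 2x 0 and 1, with the highest of first exposure without the third library. The cause was not tested. With 1 CPM added to both sums, the log2 ratio of sheath to shaft keratins in the saliva immune library was -1.28, against -2.03. The same change gave -2.08 against -3.86 in ticks 2x 3, and -2.02 against -3.19 in ticks 3x 3. In naive 2 the ratio was -1.66 against -2.17, and in the other libraries it moved less. No paired analysis was possible because the labels hold no replicate numbers that tie libraries across groups. In the second naive, the third ticks 2x, the third ticks 3x and the saliva immune library at most 12 of the 30 genes exceeded 3 reads, at estimated depths of 12.5 M, 16.1 M, 20.1 M and 25.6 M reads. In first exposure 2, at 17.9 M reads, all 30 did.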

Other observations

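The sums of sebaceous gland and of skeletal muscle markers also differed between libraries, in another order than the hair genes. The 7 sebaceous markers summed to 6712 and 10222 CPM in naive skin, 2094, 993 and 2213 CPM at first exposure, 2868, 1591 and 4325 CPM in ticks 2x, 2765, 1669 and 4745 CPM in ticks 3x and 2875 CPM in the saliva immune library. The 5 muscle markers summed to 19697 and 10745 CPM in naive skin, 9460, 11215 and 12875 CPM at first exposure, 1517, 1904 and 17670 CPM in ticks 2x, 3400, 5477 and 26151 CPM in ticks 3x and 9617 CPM in the saliva immune library. Corin, expressed in the dermal papilla, differed by 93.7-fold, with 36.5 and 35.3 CPM in the first libraries of first exposure and 0.475 CPM in the third. It was picked after its values were seen.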
